A study of Rattus norvegicus with 30 samples.

Results

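Glucocorticoid hormones act in the brain through a pair of nuclear receptors, and the 6 genes described here are those receptors, a receptor of the stress peptide system, and targets of the hormone. They are Nr3c1, Nr3c2, Crhr1, Fkbp5, Sgk1 and Per1, chosen by Ensembl identifier from the 32552 genes in each count table. All 6 identifiers lay on the chromosome that the choice required, so none was dropped, and all 6 passed the filter on low counts together with the rest of 15797 genes.

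RNA from the brains of 30 adult male Sprague Dawley rats of wild type genotype was sequenced. CT rats (7) pressed for saline and were never shocked. The SR (shock-resistant, 7 rats) and SS (shock-sensitive, 6 rats) groups self-administered methamphetamine (METH) for 21 days and went on for 8 days in which lever presses could be punished with foot-shocks. Under punishment SR rats went on pressing, whereas SS rats pressed less. The YSR (5 rats) and YSS (5 rats) groups received saline and were given the shocks of an SR or an SS partner, whose identity the labels do not give. SR and SS were therefore sorted by behavior and not assigned, and less pressing also means less drug and fewer shocks. The labels name dorsal striatum as the tissue but describe dissection of the hippocampus, which is also the region in the study's methods. They place dissection 2 hours after the last day of self-administration, and the study's abstract also gives 2 hours, after the last session. The study's methods instead place it directly after the last session. The tables hold no gene symbols, so the region could not be checked against its markers. In whole tissue, fewer cells of a type and less RNA per cell cannot be told apart.

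Library depth lay between 14584340 and 19997820 counts. The titles carry a code, XII or XIII, taken here as a cohort. Cohort XII held 11 rats (1 CT, 4 SR, 2 SS, 3 YSR and 1 YSS) and cohort XIII held 19 (6 CT, 3 SR, 4 SS, 2 YSR and 4 YSS), so that CT rats came almost wholly from cohort XIII. The cohort was uneven between groups, and differences were also computed within cohorts. The share of counts on mitochondrial genes was 6.4% to 9.69% over the 30 libraries. A fit without the 3 SR rats with the letter L in their code (XII-L05, XII-L07 and XIII-L09), added after the data were seen, called none of the 6 genes in any comparison.

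Corticosterone, the main glucocorticoid of the rat, binds a high-affinity mineralocorticoid receptor (encoded by Nr3c2) and a lower-affinity glucocorticoid receptor (encoded by Nr3c1), both of which are abundant in hippocampal neurons. The occupied receptors enter the nucleus and raise or lower the transcription of target genes. Among these targets, Fkbp5 encodes a co-chaperone of the receptor complex that reduces hormone binding, which makes it a feedback regulator. Sgk1 encodes a serum- and glucocorticoid-induced kinase. Per1 encodes a component of the circadian clock that also responds to glucocorticoids and to neuronal activity. Crhr1 encodes the receptor for corticotropin-releasing hormone, the peptide that starts the endocrine stress response.

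No member differed between groups after correction over all genes. With a threshold of 0.05 on p-values adjusted by Benjamini-Hochberg in edgeR's quasi-likelihood test, 0 of 6 members were called in each of 9 comparisons, and the same count of 0 was obtained with DESeq2. These comparisons called few genes of any kind. Against CT, the share of all 15797 genes called at this threshold was 0% for SR, 0.101% for SS, 0.12% for YSR, 0.0823% for YSS and 0.139% for the mean of the 4 shocked groups. It was 0% between SR and SS, 0.0253% between SR and YSR, 0% between SS and YSS, and 0% for the contrast (SR - YSR) - (SS - YSS). Where no gene was called by edgeR, DESeq2 called 13 genes between SR and CT, 12 between SR and SS, 0 between SS and YSS and 0 in the contrast.

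At an unadjusted p-value under 0.05, 2 of 6 members passed in SR vs. CT (Nr3c1 and Nr3c2, both lower in SR), against 10.5% (1656) of all genes. In SR vs. YSR the same 2 members passed, again lower in SR, against 8.17% of all genes. In SR vs. SS, Nr3c2 passed as lower and Crhr1 as higher in SR, against 7.46% of all genes. None of the 6 passed against CT in SS (5.01% of all genes), YSR (7.56%), YSS (5.01%) or the mean of the shocked groups (7.67%). None passed between SS and YSS (4.27%, or 675 genes) or in the contrast of the METH-against-yoked differences (5.43%, or 857 genes). These comparisons share rats: CT enters 5 of them and SR enters 3 of the pairwise ones, so that Nr3c1 and Nr3c2 were low in the same 7 SR rats each time.

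**Figure D1:**
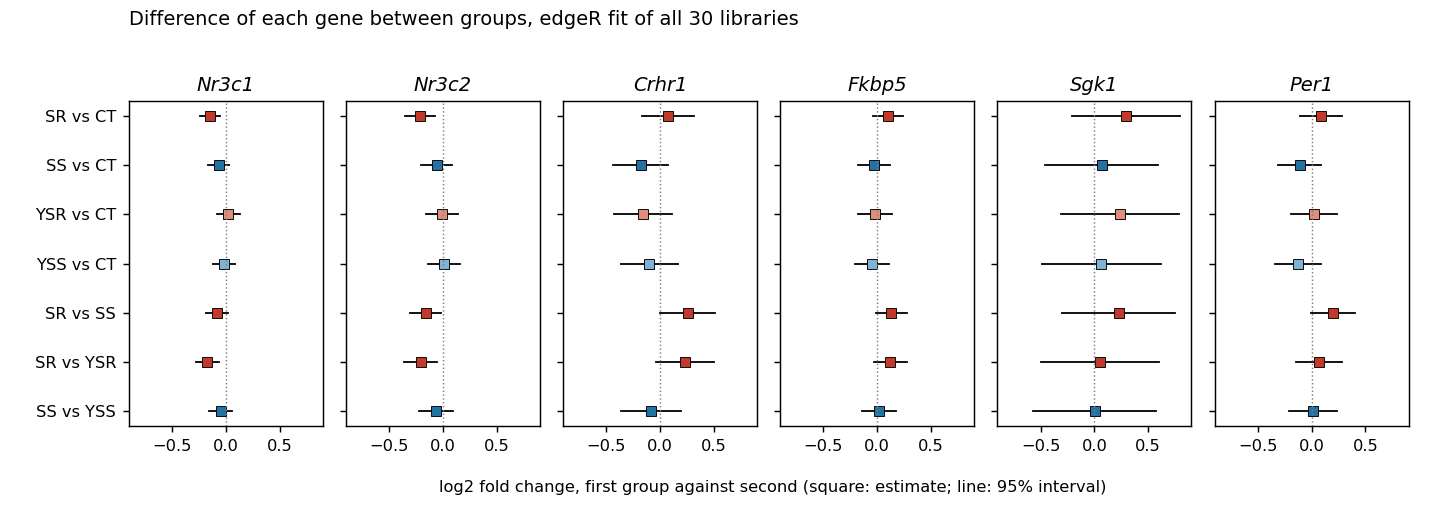
Log2 fold change (horizontal axis) of each of the 6 genes in 7 pairwise comparisons (rows), from the edgeR fit of all 30 libraries. Squares are estimates, with the color of the first group named, and lines are 95% intervals not adjusted for the number of genes. For Nr3c1 and Nr3c2 the intervals of SR vs. CT and SR vs. YSR lie below 0, and those of Sgk1 are the widest of the 6.

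The members differed widely in level and in how much rats of one group varied. Per length of the gene, Sgk1 was the most abundant, with 32.2 ± 10.7 RPKM (SD, n = 30 rats). It was followed by Fkbp5 (28.7 ± 2.75 RPKM), Nr3c2 (23.5 ± 2.52 RPKM), Per1 (18.4 ± 2.49 RPKM), Nr3c1 (17.6 ± 1.23 RPKM) and Crhr1 (3.50 ± 0.571 RPKM). Sgk1 exceeded Fkbp5 in only 18 of 30 rats and Per1 exceeded Nr3c1 in only 19 of 30, so neither of these neighbors in the order was separated beyond its spread. Fkbp5 was above Nr3c2 in 28 of 30 rats, Nr3c2 above Per1 in 27 and Nr3c1 above Crhr1 in all 30. By CPM, which takes no account of length, Nr3c1 ranked 3rd and Nr3c2 5th of the 6. The order per length rests on the counted exon lengths, which were 1248 bases for Crhr1, 2631 for Nr3c2 and 5078 for Nr3c1. Whether these cover the whole transcripts was not tested.

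The spread of Sgk1 between rats of one group was 0.52 on the log2 CPM scale, higher than that of all 500 genes nearest to it in level, whose median was 0.089. Per1 had a within-group SD of 0.19, higher than in 95% of its 500 neighbors, and Fkbp5 had 0.14, higher than in 85%. Nr3c2 was above 79.6% of its neighbors (SD of 0.13). The glucocorticoid receptor Nr3c1 lay among its neighbors, with an SD of 0.088 against a median of 0.090 for its neighbors, and Crhr1 (0.21) lay under the median of its own neighbors (0.25), which are genes of low count.

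**Figure D2:**
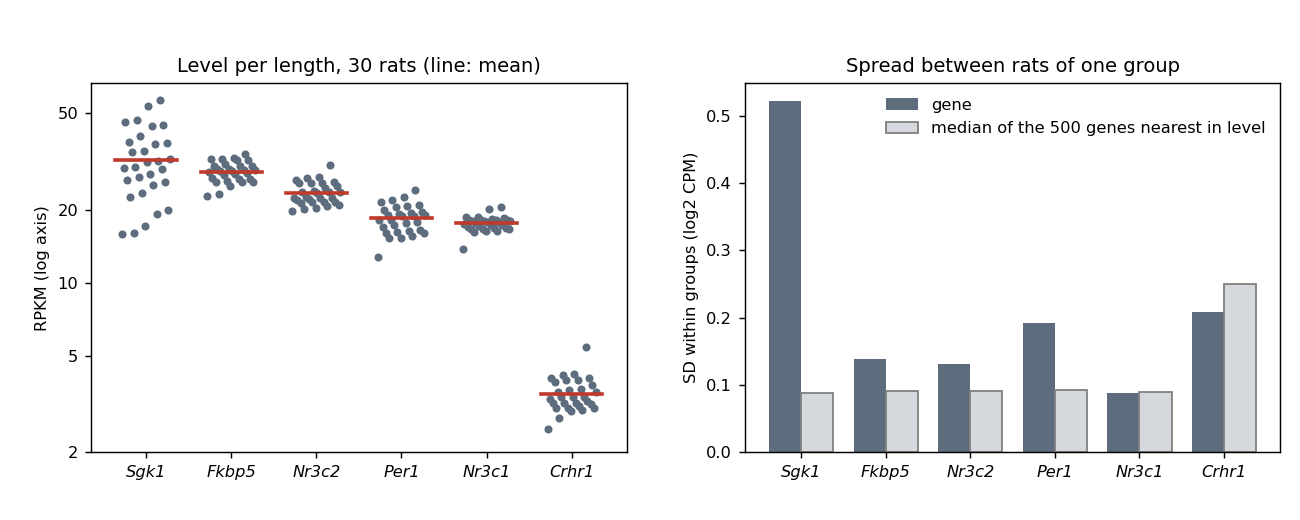
Left: RPKM of each gene in 30 rats on a log axis (points, 1 per rat) with the mean (line). Right: SD of log2 CPM about the group means for each gene (dark bars) and the median SD of the 500 genes nearest to it in level (light bars). Sgk1 has the highest mean level and a within-group SD of 0.52, against 0.089 for its neighbors.

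Nr3c1 (ENSRNOG00000014096, chromosome 18, 31728373 to 31749647, minus strand, in the coordinates of the deposited tables, whose build is not given in the sources used here) encodes the glucocorticoid receptor. Its level in CT rats was 82.8, 92.4 and 104 CPM (lowest, median and highest of 7). In SR rats it was 70.3, 84.95 and 88.5 CPM, and in SS rats 81.8, 88.6 and 91.5 CPM. The ranges overlapped, although 5 of 7 CT rats lay above the highest SR rat. In YSR rats the level was 91.5, 92.4, 88.2, 94.0 and 102 CPM, and in YSS rats 94.6, 84.8, 92.3, 92.1 and 90.2 CPM. Among the 7 SR rats, 6 lay below the lowest YSR rat.

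The mean of Nr3c1 was 83.2 ± 5.94 CPM in SR and 91.9 ± 6.78 CPM in CT (SD, n = 7 each), a log2 fold change of -0.14 (SE 0.047, adjusted p = 0.351 in edgeR; exact two-sided permutation p = 0.0134). Against YSR (93.6 ± 5.14 CPM, n = 5) the log2 fold change was -0.17 (SE 0.051, adjusted p = 0.273; exact permutation p = 0.00253). SR vs. SS gave -0.080 (SE 0.048, adjusted p = 0.745; exact permutation p = 0.0897), with differences in mean log2 CPM of -0.17 in cohort XII and -0.0023 in cohort XIII (exact permutation p = 0.267 and 0.971). The difference from CT was smaller in cohort XIII alone, where 3 SR rats averaged 86.5 CPM and 6 CT rats 89.9 CPM (difference of -0.054 in mean log2 CPM, exact permutation p = 0.25). With 1 CT rat, the comparison could not be made within cohort XII, and that rat had the highest Nr3c1 level of all 30 (104 CPM). With the cohort as a covariate, the log2 fold change of SR vs. CT was -0.15 (SE 0.049, adjusted p = 0.582 in edgeR). Against YSR the groups did not overlap in either cohort. The difference in mean log2 CPM was -0.23 in cohort XII (4 and 3 rats, exact permutation p = 0.0286, the smallest possible). It was -0.088 in cohort XIII (3 and 2 rats, exact permutation p = 0.1, the smallest possible). The share of all genes without overlap in both cohorts was not computed. Without the SR rat XII-R05, the lowest of all, the log2 fold change was -0.11 against CT, -0.13 against YSR and -0.043 against SS.

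SS, YSR and YSS rats had Nr3c1 log2 fold changes of -0.063, 0.026 and -0.018 against CT, with 95% intervals of -0.16 to 0.035, -0.078 to 0.13 and -0.12 to 0.086. The 95% interval of the mean of all shocked groups against CT ran from -0.13 to 0.027.

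Nr3c2 (ENSRNOG00000034007, chromosome 19, 34448289 to 34752695, minus strand) encodes the mineralocorticoid receptor. SR rats had 52.0, 55.1 and 58.6 CPM (lowest, median and highest of 7), and CT rats had 56.8, 62.9 and 72.1 CPM. All but 1 of the 7 CT rats lay above the highest SR rat, and 5 of 7 SR rats lay below the lowest CT rat. SS rats had 54.7, 59.1 and 80.2 CPM, and the rat at 80.2 (XIII-L05) was the highest of all 30. YSR rats had 56.2, 66.0, 62.0, 67.8 and 67.8 CPM and YSS rats had 68.7, 57.5, 62.2, 70.8 and 64.4 CPM, both close to the CT range.

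The mean was 55.4 ± 2.65 CPM in SR against 64.3 ± 5.64 CPM in CT, a log2 fold change of -0.21 (SE 0.068, 95% interval -0.35 to -0.076, adjusted p = 0.324 in edgeR; exact two-sided permutation p = 0.00233). The difference for Nr3c2 was as large within cohort XIII, at -0.24 in mean log2 CPM (3 SR and 6 CT rats, exact permutation p = 0.0357). Against YSR (63.9 ± 4.95 CPM) the log2 fold change was -0.21 (SE 0.074, adjusted p = 0.403; exact permutation p = 0.00631). Within cohorts this difference was -0.24 in XII, without overlap (exact permutation p = 0.0286, the smallest possible), and -0.15 in XIII with overlap (exact permutation p = 0.3). Against SS (61.9 ± 9.32 CPM) the log2 fold change was -0.16 (SE 0.071, adjusted p = 0.629; exact permutation p = 0.0396). This last value rested on cohort XIII and in part on the single SS rat XIII-L05, since Nr3c2 differed by 0.0019 in cohort XII and by -0.23 in cohort XIII in mean log2 CPM, and the log2 fold change was -0.072 without that rat.

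In SS, YSR and YSS rats Nr3c2 differed from CT by -0.055, -0.0078 and 0.0098 on the log2 scale, with 95% intervals within -0.20 and 0.16. Across the 30 rats, after subtraction of group means, Nr3c2 went with the share of mitochondrial counts (Pearson's r = -0.47, Spearman's rho = -0.49, and r = -0.58 without the 2 farthest rats, given as a description). The median of that share was 7.51% in CT, 7.85% in SR, 7.67% in SS, 8.04% in YSR and 7.90% in YSS. Its part in the Nr3c2 differences was not tested. Nr3c2 also followed the first principal component of all genes (r = 0.61), which held 16% of the variance about the group means.

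The ratio of Nr3c2 to Nr3c1 per length, a measure of the balance of both receptor mRNAs, was 1.29 ± 0.128 in SR and 1.36 ± 0.147 in CT (difference of -0.068 in mean log2 ratio, exact permutation p = 0.406). It was 1.36 ± 0.195 in SS, 1.32 ± 0.0860 in YSR and 1.37 ± 0.0747 in YSS. The level of the ratio rests on the counted lengths, 2631 bases for Nr3c2 and 5078 for Nr3c1. The direction of SR against SS differed by cohort without overlap in either, at 0.17 in cohort XII (4 and 2 rats, exact permutation p = 0.2) and -0.23 in cohort XIII (3 and 4 rats, exact permutation p = 0.0571). In cohort XIII the 3 SR rats had lower ratios than all 6 CT rats (-0.19, exact permutation p = 0.0357). The gap was narrow, with 1.276 in the SR rat XIII-L09 and 1.279 in the CT rat XIII-L12. The order was the other way in cohort XII, where the only CT rat (1.095) lay below the 4 SR rats (1.21 to 1.56).

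Crhr1 (ENSRNOG00000004900, chromosome 10, 92191718 to 92232645, plus strand) had few counts, 52 to 116 per library. In SR rats the level was 4.0, 4.97 and 5.18 CPM (lowest, median and highest of 7), and in SS rats it was 3.45, 3.94 and 4.56 CPM. Of the 7 SR rats, 5 lay above the highest SS rat, and of the 6 SS rats 4 lay below the lowest SR rat. CT rats had 3.79, 4.0 and 6.80 CPM, a range that covers every SR rat. YSR rats had 3.81, 4.94, 4.42, 3.12 and 4.05 CPM and YSS rats had 3.72, 4.15, 4.21, 4.89 and 4.24 CPM.

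The mean of Crhr1 was 4.79 ± 0.413 CPM in SR against 4.01 ± 0.428 CPM in SS, a log2 fold change of 0.26 (SE 0.12, 95% interval 0.0019 to 0.51, adjusted p = 0.666 in edgeR; exact two-sided permutation p = 0.00932). The difference was 0.29 in cohort XII (exact permutation p = 0.133) and 0.27 in cohort XIII (exact permutation p = 0.0857) in mean log2 CPM, and the groups did not overlap within either cohort. The cohorts allow only 15 arrangements (4 and 2 rats) and 35 arrangements (3 and 4 rats), so that groups can separate by chance. How many of all genes separate SR from SS in both cohorts was not computed. Against YSR the log2 fold change was 0.23 (SE 0.13, adjusted p = 0.678; exact permutation p = 0.0391), with overlapping groups and differences of 0.27 in cohort XII and 0.18 in cohort XIII (exact permutation p = 0.143 and 0.2). It was 0.15 without the YSR rat XII-R06, the lowest of all. Against CT it was 0.077 (SE 0.12, adjusted p = 0.848), and 0.19 in mean log2 CPM within cohort XIII (exact permutation p = 0.369). It lay between 0.037 and 0.20 with any 1 library left out, and was 0.20 without the CT rat XIII-L12, whose 6.80 CPM was the highest value of all 30 rats. The difference of the METH-against-yoked differences, (SR - YSR) - (SS - YSS), was 0.31 for Crhr1 (95% interval -0.074 to 0.70, adjusted p = 0.948), the highest among the 6 genes.

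Fkbp5 (ENSRNOG00000022523, chromosome 20, 7976713 to 8019020, minus strand), the receptor co-chaperone, had 96.7, 103 and 110 CPM in SR rats (lowest, median and highest of 7) and 78.9, 95.9 and 115 CPM in CT rats. SS rats had 84.8, 93.7 and 108 CPM. The SR range lay inside the CT range. YSR rats had 91.0, 108, 77.5, 102 and 97.7 CPM and YSS rats had 95.03, 88.1, 88.9, 105 and 91.0 CPM, which also overlapped CT.

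The log2 fold changes of Fkbp5 were 0.10 in SR vs. CT (SE 0.069, adjusted p = 0.599; exact permutation p = 0.15), 0.13 in SR vs. SS (SE 0.072, adjusted p = 0.716; exact permutation p = 0.0542) and 0.12 in SR vs. YSR (SE 0.076, adjusted p = 0.725; exact permutation p = 0.125). The differences from SS and YSR were larger in cohort XII, whose only CT rat had the lowest CT level (78.9 CPM). There the 4 SR rats lay above both SS rats (0.32 in mean log2 CPM, exact permutation p = 0.0667, the smallest possible) and above all 3 YSR rats (0.23, exact permutation p = 0.0286, the smallest possible). In cohort XIII the differences were -0.018 against CT, -0.0038 against SS and -0.016 against YSR. Without that CT rat the log2 fold change of SR vs. CT was 0.052, and without the YSR rat XII-R02 that of SR vs. YSR was 0.060. For the mean of the 4 shocked groups against CT, each group weighted equally, the log2 fold change was 0.00044, with a 95% interval of -0.11 to 0.12.

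Sgk1 (ENSRNOG00000011815, chromosome 1, 24185435 to 24302298, minus strand) varied more between rats than any other member, from 57.9 to 208 CPM, a range of 3.59-fold. CT rats had 58.5, 108 and 161 CPM (lowest, median and highest of 7), SR rats had 57.9, 137 and 195 CPM, and SS rats had 70.0, 108 and 147 CPM. YSR rats had 119, 208, 94.8, 72.8 and 137 CPM. YSS rats had 96.7, 127, 62.7, 171 and 102 CPM. Each group spanned at least 2.09-fold and all groups overlapped.

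The log2 fold changes of Sgk1 against CT were 0.29 in SR (SE 0.25, adjusted p = 0.674), 0.069 in SS (SE 0.26, adjusted p = 0.997), 0.24 in YSR (SE 0.27, adjusted p = 0.857) and 0.066 in YSS (SE 0.27, adjusted p = 0.991). Their 95% intervals were wide, for example from -0.21 to 0.80 in SR vs. CT, so that differences up to that size could not be resolved at this spread. Without the SR rat XIII-L09, the highest of its group, SR vs. CT was 0.17, and without the CT rat XIII-R05, the lowest of its group, it was 0.19. It was 0.42 without the SR rat XII-R05, the lowest of its group, and also without the CT rat XIII-R12, the highest of its group. Over all rats the difference in mean log2 CPM was 0.25 in SR vs. CT (exact permutation p = 0.409) and 0.16 in SR vs. SS (exact permutation p = 0.596). In SR vs. YSR it was 0.042 (exact permutation p = 0.908). Sgk1 was also compared within cohorts. In cohort XIII the 3 SR rats (195, 167 and 163 CPM) lay above all 6 CT rats (58.5 to 161 CPM), a difference of 0.80 in mean log2 CPM (exact two-sided permutation p = 0.0357; adjusted p = 0.595 in edgeR). They also lay above all 4 SS rats of that cohort (0.52, exact permutation p = 0.0571). They overlapped its 2 YSR rats (119 and 208 CPM), with a difference of 0.15 (exact permutation p = 0.8). These YSR rats were above the CT rats of cohort XIII by 0.64 in mean log2 CPM, with overlap. The 4 SR rats of cohort XII (57.9, 82.2, 115 and 137 CPM) lay on either side of its only CT rat (116 CPM). They overlapped its 2 SS rats (difference of 0.090 in mean log2 CPM, exact permutation p = 0.8). They also overlapped its 3 YSR rats (difference of -0.075). With the cohort as a covariate, the coefficient for cohort XII against XIII was -0.48 for Sgk1 (SE 0.17, adjusted p = 0.14) and that of SR vs. CT was 0.44 (SE 0.23, adjusted p = 0.75).

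**Figure D3:**
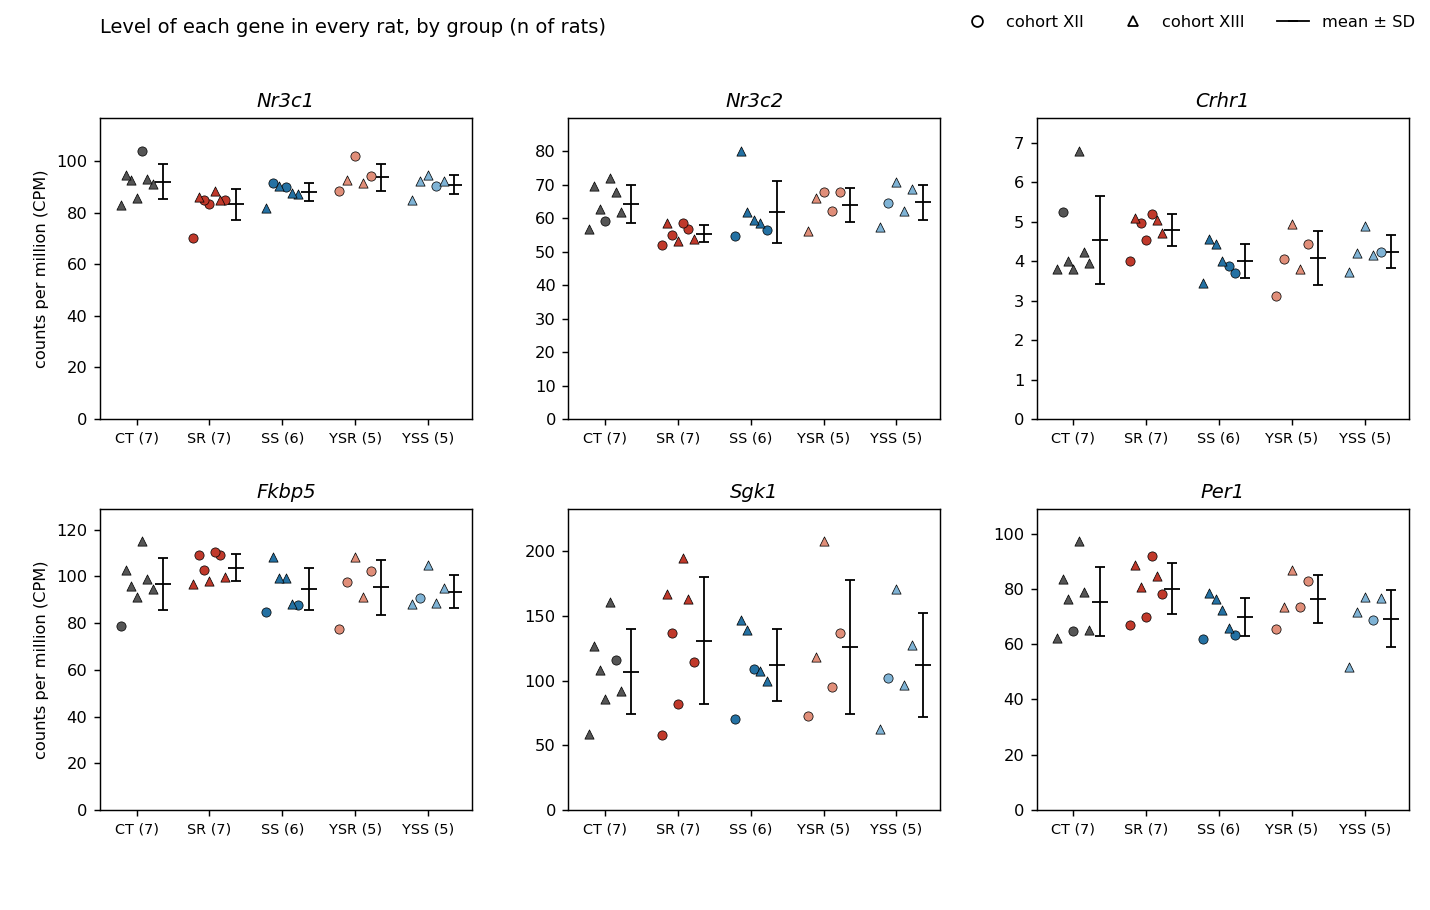
CPM of each of the 6 genes in every rat (vertical axes, from 0), by group, with the number of rats in parentheses. Circles are rats of cohort XII, triangles rats of cohort XIII, and the bar beside the points is the group mean ± SD. Nr3c2 in SR (52.0 to 58.6 CPM) lies low against CT (56.8 to 72.1 CPM), and Sgk1 spreads from 57.9 to 208 CPM.

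Per1 (ENSRNOG00000007387, chromosome 10, 55687050 to 55695994, plus strand), the clock gene, had 66.9, 80.8 and 91.8 CPM in SR rats (lowest, median and highest of 7). SS rats had 62.0, 69.2 and 78.4 CPM, and CT rats had 62.2, 76.2 and 97.2 CPM. Of the 7 SR rats, 4 lay above every SS rat, but the CT range covered all SR rats. YSR rats had 73.4, 86.8, 82.9, 65.3 and 73.4 CPM and YSS rats had 71.7, 76.9, 51.9, 76.7 and 68.7 CPM.

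In SR vs. SS the log2 fold change of Per1 was 0.20 (SE 0.099, 95% interval -0.0027 to 0.40, adjusted p = 0.675; exact permutation p = 0.0513). The direction was the same in both cohorts, at 0.28 in XII (exact permutation p = 0.133) and 0.21 in XIII (exact permutation p = 0.0571), and SR and SS rats did not overlap within either. With 4 and 2 rats in cohort XII and 3 and 4 in cohort XIII, only 15 and 35 arrangements exist. Groups this small can separate by chance, and the share of all genes that do so in both cohorts was not computed. Against CT, Per1 differed by 0.088 in SR, -0.11 in SS, 0.020 in YSR and -0.12 in YSS, with adjusted p-values from 0.756 to 0.997. Within cohort XIII these differences in mean log2 CPM were 0.15, -0.062, 0.065 and -0.16. With any 1 library left out, SR vs. CT lay between 0.046 and 0.16 for Per1. Against the yoked groups, Per1 differed by 0.068 in SR vs. YSR (exact permutation p = 0.495) in mean log2 CPM. In SS vs. YSS the difference was 0.020 (exact permutation p = 0.877), and both pairs of groups overlapped.

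Sgk1 and Per1 went together from rat to rat. After subtraction of the group means, their log2 CPM values correlated with Pearson's r = 0.76 and Spearman's rho = 0.70 over 30 rats (permutation p = 1e-05, the smallest that 100000 permutations within groups can give, and 8.00e-05). The correlation was 0.73 without the 2 rats farthest from the median of Sgk1. With group means taken within cohorts it was 0.90 over 19 rats of cohort XIII and 0.55 over the 9 rats of cohort XII whose group held more than 1 rat. Of 15796 other genes, 6 correlated with Sgk1 more closely than Per1 did, and 10 correlated with Per1 more closely than Sgk1 did. The SR rat XII-R05 (57.9 CPM of Sgk1 and 69.9 CPM of Per1) and the YSS rat XIII-L06 (62.7 and 51.9 CPM) were low in both genes. The CT rat XIII-R12 (161 and 97.2 CPM) and the YSR rat XIII-R10 (208 and 86.8 CPM) were high in both. The coefficients for cohort XII against XIII were -0.48 for Sgk1 and -0.15 for Per1 (adjusted p = 0.14 and 0.255 in edgeR).

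**Figure D4:**
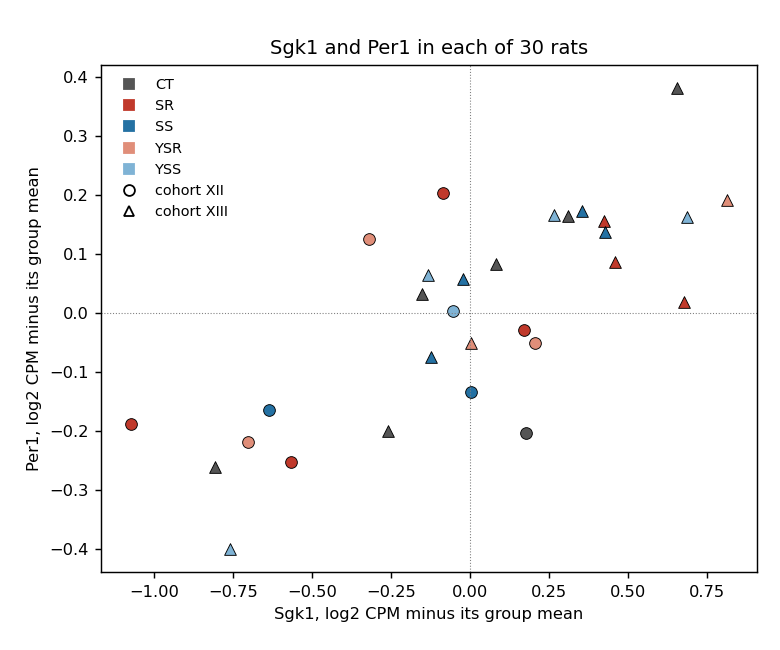
Log2 CPM of Per1 against that of Sgk1 in 30 rats, each minus the mean of its group, with colors for groups and shapes for cohorts. The points run from low in both to high in both (r = 0.76), and the triangles of cohort XIII lie closer to a line (r = 0.90) than the circles of cohort XII (r = 0.55).

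The stretches just upstream of the start sites of these 2 genes are shown because their mRNA levels went together from rat to rat. They are the 120 bases before each start site of Sgk1 and Per1 in RefSeq's annotation of the GRCr8 assembly, a build whose positions differ from those of the count tables. Sgk1 has 3 annotated start sites on the minus strand. The stretches before them lie at chr1:24807232-24807351, chr1:24805571-24805690 and chr1:24804832-24804951. Per1 has 1 start site, on the plus strand, and the stretch before it lies at chr10:54304256-54304375. Capitals mark the letters TATAAA, the core of a TATA box, searched on both strands and chosen after the windows were read.
Sgk1 start 1: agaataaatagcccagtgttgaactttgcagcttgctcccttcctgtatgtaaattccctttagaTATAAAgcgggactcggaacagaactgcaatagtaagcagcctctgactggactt
Sgk1 start 2: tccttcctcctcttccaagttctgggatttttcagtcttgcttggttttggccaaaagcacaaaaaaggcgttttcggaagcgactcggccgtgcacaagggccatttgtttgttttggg
Sgk1 start 3: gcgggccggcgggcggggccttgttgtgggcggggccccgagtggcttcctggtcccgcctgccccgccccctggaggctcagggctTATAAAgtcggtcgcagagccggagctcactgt
Per1 start 1: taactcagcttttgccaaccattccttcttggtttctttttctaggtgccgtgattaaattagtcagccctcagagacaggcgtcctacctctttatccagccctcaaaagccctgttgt
The letters TATAAA occur at start 1 and start 3 of Sgk1, beginning 55 and 33 bases before the start site, and not at the start of Per1. Of 33469 windows of 300 bases (250 before and 50 after a start site), 14.2% hold them.

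For the members other than Nr3c2, whose window is not in the table, the 300-base windows were searched on both strands for the letters bound by the receptors and by factors of the clock and of neuronal activity. The full glucocorticoid response element searched was AGAACA followed after 3 bases by TGTTCT, which 0.0149% of all windows hold. One arm of it, TGTTCT, is in 20.7% of windows, the E-box CACGTG in 6.42% and the cAMP response element TGACGTCA in 1.83%. None of these letters was found in the 9 windows of Nr3c1, Fkbp5, Sgk1, Per1 and Crhr1, of which the 2 of Crhr1 largely overlap. The full element is so rare that its absence from 9 windows carries no information. The search says nothing of sites outside the windows or of sites with other letters.

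Among the other 14 pairs of members, Nr3c2 and Fkbp5 had the next closest relation (r = 0.47, rho = 0.50, permutation p = 0.0174 and 0.00979, and r = 0.44 without the 2 farthest rats), with r = 0.78 over 9 rats of cohort XII and 0.38 over 19 rats of cohort XIII. Both followed the first principal component (r = 0.61 for Nr3c2 and 0.42 for Fkbp5), whose part in the relation was not tested. Sgk1 and Crhr1 had r = 0.40 and rho = 0.49 (permutation p = 0.0332 and 0.0108, and r = 0.37 without the 2 farthest rats), with r = 0.28 and 0.37 within the cohorts. Both receptors of corticosterone, Nr3c1 and Nr3c2, had r = 0.18 and rho = 0.23 about the group means (permutation p = 0.315 and 0.243), which was 0.40 without the 2 rats farthest in Nr3c1. It was 0.17 in cohort XII and 0.66 in cohort XIII. The receptor Nr3c1 and its target Fkbp5 had r = -0.30 and rho = -0.32 (permutation p = 0.134 and 0.104), and r = -0.084 without the 2 farthest rats. For Nr3c1 and Sgk1, r was 0.24 and rho 0.066 (permutation p = 0.25 and 0.742), and r was -0.015 without the 2 farthest rats. The 15 p-values of pairs are not adjusted for their number.

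Outside the 6 genes, the gene whose values followed Sgk1 most closely about the group means was ENSRNOG00000007390 on chromosome 6 (r = 0.90 over 30 rats), and for Per1 it was ENSRNOG00000015719 on chromosome 4 (r = 0.88). Nr3c2 was closest to ENSRNOG00000010124 on chromosome 2 (r = 0.91) and had 188 of 15791 genes with r over 0.7, against 9 for Sgk1 and 15 for Per1. The closest genes to Fkbp5 and Nr3c1 reached r = 0.77 and 0.75, and that to Crhr1 reached 0.69.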

How the data were processed

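The authors deposited 1 table of raw counts per rat (30 tables), with the chromosome, exon positions, strand and counted length of 32552 Ensembl genes. The submitters' processing notes name bcl2fastq 2.17, Trimmomatic 0.36, STAR 2.5.2b and featureCounts of Subread 1.5.2. The genome build and the use of strand are not given in the sources used here, so reads of overlapping genes cannot be told apart. The span of Nr3c2 holds 2 genes of the opposite strand (9 and 42 counts over all rats) with 0 shared exon bases.

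Groups and cohorts were taken from the titles. Raw counts were tested with edgeR 4.0.16 in R 4.3.3 (quasi-likelihood F test, TMM normalization, default filter, 15797 genes, all 30 libraries in 1 fit with the group as the only factor), and p-values were adjusted by Benjamini-Hochberg over all genes tested. The SE is the log2 fold change divided by the square root of F. CPM are TMM-normalized, RPKM use the counted length, and log2 CPM have a prior count of 2. Single genes were also compared by exact two-sided permutation of group labels (48 comparisons over all rats), which are unadjusted. Where groups are said not to overlap within a cohort, the share of all genes that do the same was not computed. DESeq2 1.42.0 and the settings in the closing section were alternatives. Counts at this depth limit precision most for Crhr1.

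The 6 genes, the gene lists and the motifs were chosen with earlier results of these data known. Named genes are the 6 in every comparison and, for each, the 1 gene that follows it most closely. The pairing of the 6 symbols with identifiers comes from the choice of genes and was checked by chromosome only. The gene tables pair 0 of 32552 identifiers with symbols, so the lists of ligands, chaperones, further glucocorticoid targets, clock genes, activity-induced genes and cell type markers were not analysed here. No 2 libraries of a group agreed within sampling noise (lowest chi-square per degree of freedom of 5.08, with 1 expected), and each was counted as 1 rat.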

Additional observations from a re-analysis of the deposited data

Results flagged for a closer look

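The highest and the lowest rat of each group were set against the rest for 8 measures (the 6 genes, the ratio of Nr3c2 to Nr3c1, and the total count), 40 groups of values in all, of which chance gives about 1 in 20, or 2. In 3 of them a rat stood outside the 95% limit of Dixon's test. Nr3c1 was 70.3 CPM in the SR rat XII-R05, against 83.1 to 88.5 CPM in the other 6 SR rats. The ratio of Nr3c2 to Nr3c1, which holds the same Nr3c1 value, was 1.56 in that rat, against 1.2 to 1.33 in the other 6. Nr3c2 was 80.2 CPM in the SS rat XIII-L05, against 54.7 to 62.0 CPM in the other 5 SS rats. The cause was not tested in either rat.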

How the results depend on the processing

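None of the 6 genes was called at an adjusted p-value under 0.05 in the 9 comparisons under any of 10 other settings or with any 1 of 30 libraries left out. Of 480 log2 fold changes under the other settings, 457 kept their direction and 23 did not, and of 1620 with a library left out, 1554 kept it and 66 did not. In cohort XIII alone, the reversed values were -0.020 for Fkbp5 in SR vs. CT, 0.017 for Nr3c1 and -0.0077 for Nr3c2 in YSS vs. CT, -0.029 for Fkbp5 in the shocked groups vs. CT, 0.00015 for Nr3c1 and -0.0049 for Fkbp5 in SR vs. SS, -0.018 for Fkbp5 in SR vs. YSR, 0.0033 for Nr3c2 in SS vs. YSS, and -0.084 for Fkbp5 and -0.0029 for Sgk1 in the contrast (SR - YSR) - (SS - YSS). In cohort XII alone they were 0.0086 for Nr3c2 in SR vs. SS and -0.039 for Sgk1 in SR vs. YSR. With the cohort as a covariate they were 0.015 for Nr3c2 and 0.017 for Fkbp5 in YSR vs. CT, 0.012 for Per1 in the shocked groups vs. CT and -0.016 for Sgk1 in the contrast. For Fkbp5 in the shocked groups vs. CT, DESeq2 gave -0.0019, median-ratio size factors -0.0017, a minimum of 10 counts in each library -0.0015 and the fit without the 3 SR rats of letter L, added after the data were seen, -0.0027. That last fit gave -0.10 for Sgk1 in SR vs. YSR and -0.10 in the contrast. With all genes of at least 1 count, Sgk1 was -0.0023 in SS vs. YSS.

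With 1 library left out, ranges that crossed 0 were -0.078 to 0.015 for Fkbp5 and -0.037 to 0.20 for Sgk1 in SS vs. CT. Between YSR and CT they were -0.011 to 0.054 for Nr3c1, -0.035 to 0.030 for Nr3c2, -0.076 to 0.042 for Fkbp5, -0.023 to 0.38 for Sgk1 and -0.035 to 0.090 for Per1. In YSS vs. CT they were -0.041 to 0.012 for Nr3c1, -0.027 to 0.049 for Nr3c2, -0.14 to 0.22 for Sgk1 and -0.16 to 0.024 for Crhr1. In the shocked groups vs. CT they were -0.047 to 0.046 for Fkbp5, -0.074 to 0.038 for Per1 and -0.13 to 0.034 for Crhr1. They were -0.085 to 0.32 for Sgk1 in SR vs. YSR, -0.027 to 0.063 for Fkbp5, -0.15 to 0.21 for Sgk1 and -0.076 to 0.055 for Per1 in SS vs. YSS, and -0.15 to 0.32 for Sgk1 in the contrast. The causes were not tested. Cohort XII held enough rats only to set SR against SS and against YSR. Tukey's test was run for the pairwise comparisons, and the fit of only the groups compared was not run for the shocked groups vs. CT. By CPM in place of RPKM, Nr3c1 and Nr3c2 exchanged ranks 5 and 3. No paired analysis was run because the labels name no partner of a yoked rat and no code is shared by rats of 2 groups. Some METH and yoked rats have adjacent codes, such as SR XIII-R07 and YSR XIII-R08, but no label calls them partners. METH and yoked rats were therefore compared as if independent.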
